A study of Mus musculus with 12 samples.

Results

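The response of control mouse islets to TNF-alpha, IL-1beta and IFN-gamma was examined over 19800 genes of the 55536 counted. These are all genes that the count filter kept, and none was picked by its test result. The filter did not ask for counts in every group. A gene silent in untreated islets could thus be kept through its counts in treated ones. Gphb5, with no count in any untreated control library, is such a gene. The study sequenced total RNA of pancreatic islets from control mice and from mice labelled bKO with the genotype PTPN2 -/-, untreated or with cytokines, in 12 libraries. Islets of 16-week-old controls on a mixed C57BL/6J background gave 6 of them. Their genotype label is PTPN2 fl/fl and their titles read PTPN2 +/+, and the labels name no Cre for them. The 3 untreated libraries received no cytokine, and the 3 treated ones come from islets held with the 3 cytokines for 24 h. Whether the untreated islets stayed in culture for as long is not stated in the labels. Islets of 3 control mice are named as the source, so some of the 6 libraries must share a mouse, but the labels do not link libraries to mice. The p-values below treat the libraries as independent.

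Islets are small endocrine organs inside the pancreas, in which beta cells make insulin, alpha cells glucagon and delta cells somatostatin, with endothelial cells, macrophages and fibroblast-like cells among them. The 3 cytokines are released by immune cells that enter islets in autoimmune diabetes. IFN-gamma acts through JAK kinases and STAT factors, which bind GAS elements in DNA, while TNF-alpha and IL-1beta act through separate receptors and relays that meet at NF-kB and AP-1 factors. The combination is known to switch on inducible nitric oxide synthase in beta cells and to reduce their function.

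The 6 libraries held 52930884 to 107515565 counts. Levels are given as CPM, counts per 1e6 of the TMM-scaled library size, in the order replicate 1, 2 and 3, and differences as fitted log2 fold changes of treated over untreated islets with their standard error (SE). A gene is said to have risen or fallen where the edgeR quasi-likelihood test gave a Benjamini-Hochberg adjusted p under 0.05. Treatment separated the libraries along the first principal component of the 2000 most variable genes, which held 95.4% of the variance. Replicate 2 of the treated islets lay at one end of the second component (2.2%). The chi-square per degree of freedom between its raw counts and those of the other treated libraries was 82.1 and 63.1, against 31.2 between the other 2. Replicate 2 was also the deepest library, with 107515565 counts. This chi-square grows with depth, and the part of depth in its size was not tested. Replicate 2 had the lowest stellate and matrix RNA of the treated libraries, which is given beside the genes concerned. The defining RNAs of islets were present. Ins2 stood at 81915, 73207 and 73075 CPM in untreated islets and Gcg, the glucagon gene, at 22356, 17415 and 18399. Exocrine and endothelial RNA was present too. Acinar markers summed to 5447 to 8902 CPM and endothelial markers to 884.8 to 1163 CPM in untreated islets.

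Most tested genes changed. After cytokines 12002 genes passed the test, 60.6% of those tested. Of these 5298 rose (26.8% of tested genes) and 6704 fell (33.9%), and the median log2 fold change of all tested genes was -0.10. Changes of at least 2-fold were called upward in 2233 genes (11.3%) and downward in 3184 (16.1%). Large rises were more numerous than large falls: 278 genes rose and 110 fell at least 16-fold, and 116 rose and 17 fell at least 64-fold. The balance of directions depends on the scaling. With DESeq2's size factors 6029 genes rose and 5874 fell, and with library totals alone 3737 rose and 8998 fell, with the median of all genes lower by 0.23. In 6035 of the 19800 tested genes all treated libraries lay above all untreated ones, and in 7919 below them, whether called or not. These shares and counts and the median of -0.10 are the background against which the genes and gene lists below are read.

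**Figure D1:**
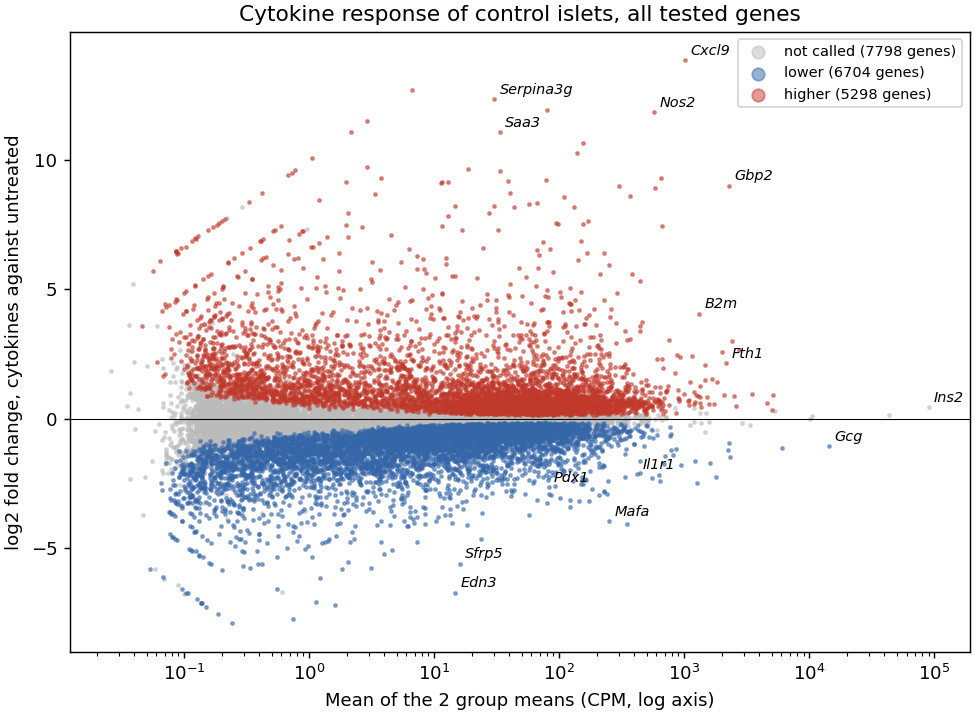
Each point is 1 of the 19800 tested genes, with the mean of the untreated and treated group means in CPM on a log x axis and the log2 fold change on the y axis. Red genes (5298) rose and blue genes (6704) fell at an adjusted p under 0.05, and Cxcl9 lies highest among the genes named in the plot. Points on the slanting lines at low level had almost no counts in 1 group, so their height depends on the prior count of the fit.

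The strongest class of rises stayed a small share of all counts. The 278 genes that rose at least 16-fold held 0.0497% to 0.0741% of all counts in untreated islets and 2.73% to 2.98% in treated islets. Gbp2, a GTPase of cell-autonomous defence, rose from 6.56, 9.09 and 11.1 to 4857, 4459 and 4384 CPM, the largest gain in CPM of any called gene. The genes that fell at least 2-fold held 12.1% to 13.1% of counts before and 3.70% to 3.95% after treatment. The 2 insulin genes together held 12.2% to 12.9% of counts in untreated and 12.6% to 14.9% in treated islets. In bulk RNA such as this, fewer cells of a type and less RNA per cell cannot be told apart.

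**Figure D2:**
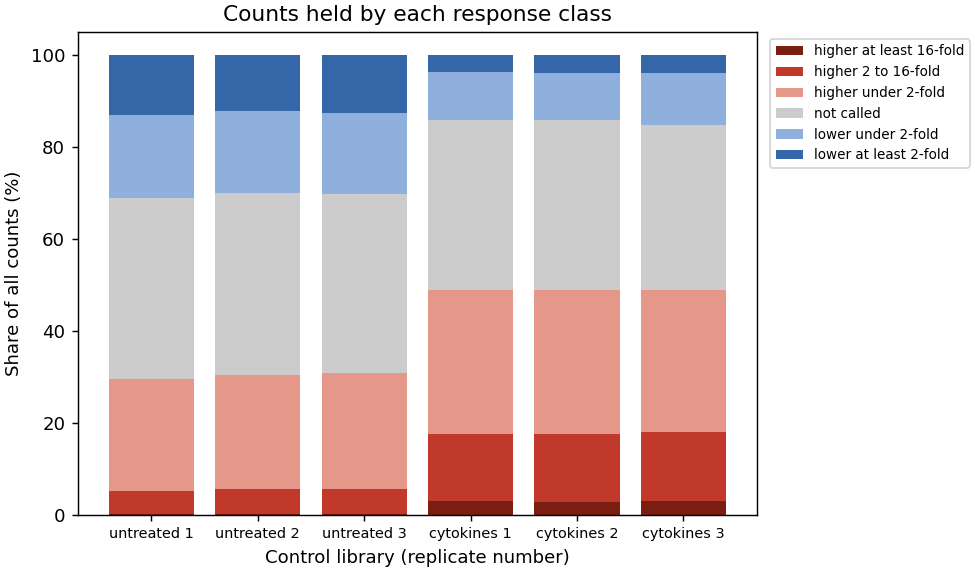
Stacked bars give the share of all counts (y axis, %) that each response class of genes held in each of the 6 control libraries (x axis). The darkest red class, genes up at least 16-fold, is barely visible in untreated libraries and reaches 2.73% to 2.98% in treated ones, and the darkest blue class shrinks to 3.70% to 3.95%.

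Several genes went from almost no reads to high levels. Cxcl9, a chemokine that attracts activated T cells, rose from 0.0626, 0.151 and 0.179 to 2449, 1772 and 1813 CPM (log2 13.85, SE 0.51, edgeR adjusted p = 2.4e-09). Nos2, the inducible nitric oxide synthase, rose from 0.11, 0.235 and 0.537 to 1191, 1114 and 1144 CPM (log2 11.84, SE 0.36, edgeR adjusted p = 6e-10). Serpina3f, a protease inhibitor, rose from 0.0626, 0.0335 and 0.0239 to 179, 147 and 156 CPM. In each of these the lowest treated library lay far above the highest untreated one. Gphb5, a subunit of the glycoprotein hormone thyrostimulin, had no count in any untreated library and 6.04, 5.74 and 5.58 CPM in the treated ones. Serpina3g had at most 1 count in an untreated library and reached 73, 47.3 and 60.4 CPM. Close copies exist within the Serpina3, Gbp, Saa, Apol, H2 and Tgtp families, so the split of reads among their members is uncertain. Saa3, an acute phase protein, rose from 0, 0.0335 and 0.0477 to 60.0, 72 and 68.1 CPM. Ubd, a ubiquitin-like protein, rose from 0.0626, 0 and 0.167 to 66.3, 63.8 and 70.5 CPM. Apol6, an apolipoprotein L, rose from 0.0157, 0.101 and 0.0239 to 48.8, 24.7 and 37.2 CPM. The treated libraries of these 3 were again apart from the untreated ones by more than 100-fold at the nearest pair.

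The deepest falls were in genes of more modest level. Edn3, the peptide endothelin 3, fell from 32.6, 25.8 and 29.3 to 0.249, 0.33 and 0.221 CPM (log2 -6.72, SE 0.16, edgeR adjusted p = 1.5e-10). This is the largest fall among genes of at least 5 CPM in untreated islets, predicted genes left aside. Map3k19, a kinase, fell from 5.79, 6.94 and 5.54 to 0.166, 0.0413 and 0.161 CPM. Sfrp5, a secreted Wnt antagonist, fell from 37.5, 27.1 and 29.7 to 0.514, 0.815 and 0.562 CPM. A1cf, an RNA-binding factor of the Apob mRNA editing complex, fell from 11.9, 7.11 and 7.65 to 0.265, 0.31 and 0.201 CPM. All 3 dropped to under 1 CPM in each treated library. The same class held a pair of regulators of endocrine development. Neurog3, which starts endocrine fate in the embryonic pancreas, fell from 9.38, 8.06 and 7.45 to 0.481, 0.33 and 0.662 CPM. Fev, a later factor of the same lineage, fell from 7.16, 6.25 and 6.31 to 0.365, 0.32 and 0.461 CPM. Ndst4, Hapln1, Ankrd34c, Kctd12b, Rtkn2 and Cd300lg completed the 12 deepest falls, with log2 fold changes of -5.21 to -4.13. In all 12 the treated libraries lay below the untreated ones, which was a condition of this ranking and no result.

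The receptors for the 3 cytokines did not move in 1 direction. Among cytokine receptors and their antagonists 8 rose and 1 fell of 9 tested, and the median log2 fold change was 1.39, against -0.10 over all genes. Il1r1, the signalling receptor for IL-1, was the member that fell. It fell from 787, 652 and 616 to 129.6, 171 and 165 CPM (log2 -2.14, SE 0.16, edgeR adjusted p = 5.9e-07), and its groups were far apart. Tnfrsf1a, the main TNF receptor, rose from 98.9, 110.0 and 108 to 262, 299.6 and 302 CPM (log2 1.45, SE 0.09, edgeR adjusted p = 1.4e-07). Ifngr2, the second chain of the IFN-gamma receptor, rose from 30.6, 32.2 and 34.7 to 98.5, 97.4 and 92.9 CPM. Ifngr1, the ligand-binding chain, rose from 30.9, 35.5 and 36.7 to 56.2, 44.5 and 61 CPM. Treated replicate 2 was the lowest treated library for Ifngr1, and still above all untreated ones. With library totals alone Ifngr1 did not pass (edgeR adjusted p = 0.0946). Il1rn, a secreted antagonist of IL-1, rose from 19.1, 21.6 and 24.8 to 90.4, 64.1 and 88.2 CPM. With library totals alone 5 of the 9 rose and 1 fell.

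Relays between the TNF and IL-1 receptors and NF-kB mostly rose. In that list 24 rose and 3 fell of 30 tested, and the median log2 fold change was 0.74. Birc3, a ubiquitin ligase of the TNF receptor complex, rose from 15.4, 17.3 and 19.1 to 197, 212 and 211 CPM (log2 3.58, SE 0.12, edgeR adjusted p = 1.2e-09). Ripk2, a kinase that carries signals to NF-kB, rose from 13.9, 13.1 and 14.3 to 144, 153 and 137 CPM. Tnip1, which restrains NF-kB, rose from 47.5, 49 and 51 to 343, 387 and 346 CPM. The treated libraries of these differed little from each other. Ikbke, a relative of the IkB kinases, rose from 10.3, 11.4 and 11.4 to 118, 190.4 and 135 CPM, with treated replicate 2 the highest. The 3 members that fell were Map3k7, the kinase TAK1, with a log2 fold change of -0.53, Irak4 with -0.46 and Tab1 with -0.28. Irak4 did not pass without treated replicate 2 (edgeR adjusted p = 0.0562).

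Inhibitors and subunits of NF-kB rose alike in direction. In that list 14 rose and 0 fell of 15 tested, and the median log2 fold change was 2.06. Tnfaip3, the deubiquitinase A20, rose from 9.95, 10.4 and 10.9 to 232, 225 and 234 CPM (log2 4.46, SE 0.091, edgeR adjusted p = 7e-11). Nfkbia, the inhibitor IkB-alpha, rose from 29.4, 33.1 and 31.5 to 453, 532 and 449.6 CPM. Zc3h12a, an RNase that destroys cytokine mRNAs, rose from 5.84, 7.73 and 8.38 to 134, 129 and 158 CPM. The log2 fold changes of these 3 brakes were 4.46, 3.93 and 4.26. Those of the subunits Rela, Rel and Nfkb2 were 1.65, 1.93 and 2.35, and these differences in size were not tested. Cyld, another deubiquitinase, was the member not called.

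The JAK, STAT and SOCS list was divided between strong responders and genes near 0. There 13 rose and 3 fell of 28 tested, and the median log2 fold change was 0.23. With library totals alone 11 rose and 8 fell and the median was -0.0029, so the balance of the list depends on the scaling. Socs1, an inhibitor of IFN-gamma signalling, rose from 1.78, 2.15 and 2.51 to 79.8, 69.6 and 87.8 CPM (log2 5.20, SE 0.16, edgeR adjusted p = 7.1e-10). Jak2, a kinase at the IFN-gamma receptor, rose from 50.04, 48.5 and 50.7 to 172, 145 and 162 CPM. No treated library of these came near the untreated range. Ptpn2, the phosphatase that is floxed in these mice, rose from 30.3, 31.5 and 31.4 to 88.9, 90.4 and 78.3 CPM (log2 1.47, SE 0.099, edgeR adjusted p = 2.8e-07). Stat3, which IL-6 activates, rose from 446, 464 and 453 to 913, 1065 and 1008 CPM. Socs2, a brake on growth hormone signals, fell from 35.6, 37.2 and 38.2 to 19.5, 16.6 and 20.1 CPM. Socs3, by contrast, stood at 69.9, 95.5 and 85.9 CPM in untreated and 90.9, 107 and 105 CPM in treated islets and did not pass (log2 0.27, SE 0.16, edgeR adjusted p = 0.17). Its groups overlapped, and a fit to the control libraries only called it (edgeR adjusted p = 0.0341).

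Transcription factors of the IRF, AP-1 and C/EBP families rose almost throughout. Of these 23 rose and 0 fell of 25 tested, and the median log2 fold change was 1.63. Irf1, which IFN-gamma is known to induce, rose from 61.1, 67 and 63.2 to 824, 865 and 876 CPM (log2 3.75, SE 0.091, edgeR adjusted p = 1.5e-10). Atf3, a stress factor, rose from 7.77, 8.67 and 7.96 to 99.8, 111 and 98.7 CPM. Batf2, a partner of Irf1, rose from 0.376, 0.486 and 0.597 to 57.6, 39.5 and 48.4 CPM. Batf2 was under 1 CPM in each untreated library.

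**Figure D3:**
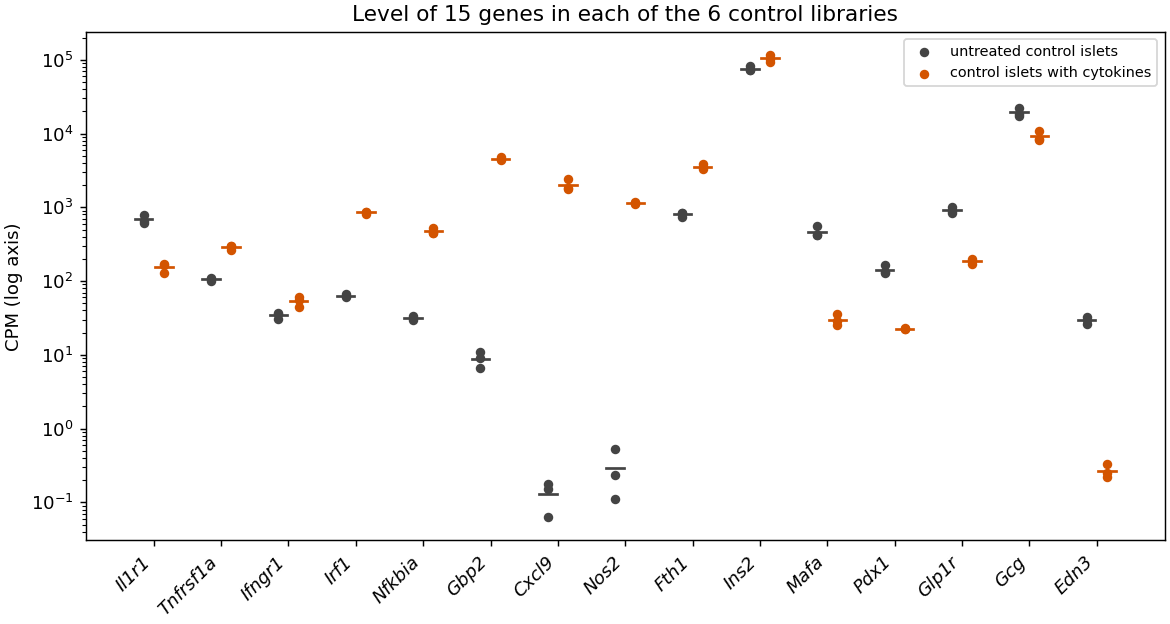
Each point is the level of 1 of 15 genes in 1 control library (CPM, log y axis), grey for the 3 untreated and orange for the 3 treated libraries, with a bar at the group mean. The groups are apart for every gene shown, as in 6035 genes upward and 7919 downward of all 19800 tested. The gap is 3 orders of magnitude or more for Nos2 and Cxcl9 and narrow for Ifngr1 and Ins2. Ins2 did not pass the test, and the genes were chosen with their values known.

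The GBP and IRG families, GTPases that attack vacuoles holding pathogens, had the highest median of the 31 lists. All were called upward: 17 rose and 0 fell of 17 tested, and the median log2 fold change was 7.47. Their summed level was 85.0 to 114 CPM in untreated and 12053 to 12961 CPM in treated islets. Gbp4 rose from 1.14, 2.35 and 2.65 to 1247, 1385 and 1281 CPM. Gbp10 rose from 0.0783, 0.268 and 0.227 to 319.7, 309 and 300.1 CPM. Gbp6 rose from 1.43, 2.08 and 1.56 to 293, 335 and 305 CPM (log2 7.53, SE 0.16, edgeR adjusted p = 9.1e-11). These 3 and Gbp2 were below 12 CPM in every untreated library. Irgm1, an IRG family member, rose from 24.2, 25.1 and 28.5 to 491, 462 and 526 CPM. Gbp2b, with at most 1 count in an untreated library, reached only 0.746, 0.723 and 1.06 CPM.

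Of sensors of foreign RNA and DNA and antiviral effectors 37 rose and 1 fell of 40 tested, and the median log2 fold change was 3.08. Ifit2, which binds viral RNA, rose from 3.81, 3.74 and 4.44 to 273, 272 and 299 CPM (log2 6.13, SE 0.16, edgeR adjusted p = 1.9e-10). Zbp1, a sensor of Z-form nucleic acid that can trigger necroptosis, rose from 1.33, 2.73 and 2.95 to 146, 126 and 129 CPM. Parp14, an ADP-ribosyltransferase, rose from 38.4, 40.8 and 40.6 to 528, 489 and 563 CPM. Members of this list spread widely in size. The RNA sensors Ddx58 (RIG-I) and Ifih1 (MDA5) rose with log2 fold changes of 2.06 and 1.07. Mavs, the adaptor that both use, was the member that fell. It fell from 22.9, 23.4 and 22.7 to 18, 16.6 and 16.1 CPM (log2 -0.44, SE 0.088, edgeR adjusted p = 0.001). Cgas, the DNA sensor, was not called (log2 -0.42).

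Genes that cut, carry and load peptides for MHC class I all rose. In the inducible proteasome and peptide loading list 12 rose and 0 fell of 12 tested, and the median log2 fold change was 3.06. Psmb9, a catalytic subunit of the immunoproteasome, rose from 11.1, 11.7 and 12.3 to 215, 213 and 184 CPM. Tap1, one chain of the peptide transporter, rose from 16.9, 20.3 and 21.4 to 516, 546 and 624 CPM (log2 4.85, SE 0.13, edgeR adjusted p = 2.2e-10). B2m, the light chain of class I, rose from 106, 147 and 193 to 2520, 2517 and 2442 CPM. The untreated libraries of B2m differed among themselves more than the treated ones in proportion. H2-D1, a class I heavy chain, rose from 461, 545 and 584 to 4467, 4910 and 3547 CPM. Nlrc5, the transactivator of class I genes, rose from 2.66, 4.04 and 4.15 to 109.9, 132 and 139.7 CPM. Subunits of the constitutive proteasome moved by less. Among them 27 rose and 1 fell of 31 tested, and the median log2 fold change was 0.51, and with library totals alone 20 rose and 1 fell. The largest rise was in Psmd8, a lid subunit, with a log2 fold change of 1.11, and the fall was in Psmd6, with -0.43.

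The promoters of 5 of the genes above and of Pdx1, a gene that fell, are shown because they differ in the motifs that the 3 cytokine pathways are known to use. Each is the 250 bases before the RefSeq start site (GRCm38.p6), 5′ to 3′ on the gene's own strand. Capitals mark matches to 4 motifs on either strand: ISRE (GAAANNGAAA), the element of interferon-stimulated genes, GAS (TTCNNNGAA), AP-1 (TGANTCA) and the kappa-B motif. One more motif, TATAAA, was searched on the gene's strand alone. Positions count the first base of a match from the start site at 0. Overlapping matches were kept.
Cxcl10 (chr5:92348890-92349139, minus strand): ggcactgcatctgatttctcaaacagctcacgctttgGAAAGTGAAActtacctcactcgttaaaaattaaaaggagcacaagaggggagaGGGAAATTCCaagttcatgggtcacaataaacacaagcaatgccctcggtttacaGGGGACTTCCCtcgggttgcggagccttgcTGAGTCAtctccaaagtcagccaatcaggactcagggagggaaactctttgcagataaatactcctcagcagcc
Gbp2 (chr3:142620413-142620662, plus strand): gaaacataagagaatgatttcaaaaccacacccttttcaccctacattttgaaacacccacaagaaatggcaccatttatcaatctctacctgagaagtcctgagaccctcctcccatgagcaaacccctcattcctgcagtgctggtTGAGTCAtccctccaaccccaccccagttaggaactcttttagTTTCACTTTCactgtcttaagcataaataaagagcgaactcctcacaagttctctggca
Irf1 (chr11:53769764-53770013, plus strand): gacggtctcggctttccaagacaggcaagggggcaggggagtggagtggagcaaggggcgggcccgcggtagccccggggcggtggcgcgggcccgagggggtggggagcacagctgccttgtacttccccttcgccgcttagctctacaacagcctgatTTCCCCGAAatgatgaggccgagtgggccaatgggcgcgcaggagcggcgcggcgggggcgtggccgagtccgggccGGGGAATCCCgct
Serpina3f (chr12:104214294-104214543, plus strand): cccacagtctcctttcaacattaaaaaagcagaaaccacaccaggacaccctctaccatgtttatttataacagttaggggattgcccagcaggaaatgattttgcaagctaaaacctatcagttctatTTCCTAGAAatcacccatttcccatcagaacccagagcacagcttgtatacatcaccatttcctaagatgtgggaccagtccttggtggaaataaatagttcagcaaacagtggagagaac
Tap1 (chr17:34187306-34187555, plus strand): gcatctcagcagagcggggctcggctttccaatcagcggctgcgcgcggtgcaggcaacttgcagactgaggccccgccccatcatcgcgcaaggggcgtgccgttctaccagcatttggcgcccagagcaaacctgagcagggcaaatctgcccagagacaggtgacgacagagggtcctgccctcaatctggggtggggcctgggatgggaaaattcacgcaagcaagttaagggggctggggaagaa
Pdx1 (chr5:147269847-147270096, plus strand): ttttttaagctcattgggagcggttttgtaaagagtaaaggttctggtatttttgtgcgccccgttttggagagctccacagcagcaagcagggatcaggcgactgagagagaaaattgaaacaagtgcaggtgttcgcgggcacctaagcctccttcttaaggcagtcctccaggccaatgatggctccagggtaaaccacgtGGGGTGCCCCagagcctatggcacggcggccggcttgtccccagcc
The Cxcl10 window holds an ISRE match at -213, kappa-B matches at -159, -104 and -103, and an AP-1 match at -74. That of Gbp2 has an ISRE match at -59 and an AP-1 match at -102, with a kappa-B match at 7, past the printed stretch. The Irf1 window has a GAS match at -90 and a kappa-B match at -13, and that of Serpina3f a GAS match at -121. The Tap1 window has no match to any of the motifs, and it is shared: the start site of Psmb9, which is read from the other strand, lies 226 bases away. Psmb9 and Tap1 rose with log2 fold changes of 4.13 and 4.85. The Pdx1 window, of a gene that fell (log2 -2.65), has a kappa-B match at -46. A match is a description of letters and does not show binding.

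Over all protein-coding genes the motif shares followed the size of the rise. RefSeq windows of 300 bases (250 before and 50 after the start) were found for 12023 tested protein-coding genes. An ISRE match was in 21.7% of windows of genes that rose at least 16-fold, in 9.89% for rises of 4 to 16-fold, in 4.09% for 2 to 4-fold, in 2.74% of windows of genes not called and in 1.35% for falls of at least 4-fold. The 15329 windows of all these genes gave 3.11%, and the share over every RefSeq promoter window was 3.44%. AP-1 matches were in 27.2%, 13.1%, 7.14%, 6.12% and 5.19% of windows of the same 5 classes, against 5.83% of windows of tested genes and 7.81% of all windows. For GAS the shares were 16.3%, 10.5%, 7.97%, 6.86% and 6.35%, against 6.91% and 8.3%. For kappa-B they were 18.5%, 16.4%, 10.8%, 10.5% and 10%, against 10.5% and 8.46%, so genes not called or lower were at or below the share of tested genes. TATAAA, a core promoter element and no cytokine motif, was in 21.2% of windows of genes up at least 16-fold and in 4.73% of those not called, against 5% of windows of tested genes and 8.32% of all windows. These are descriptions with no test, and several windows can belong to 1 gene.

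**Figure D4:**
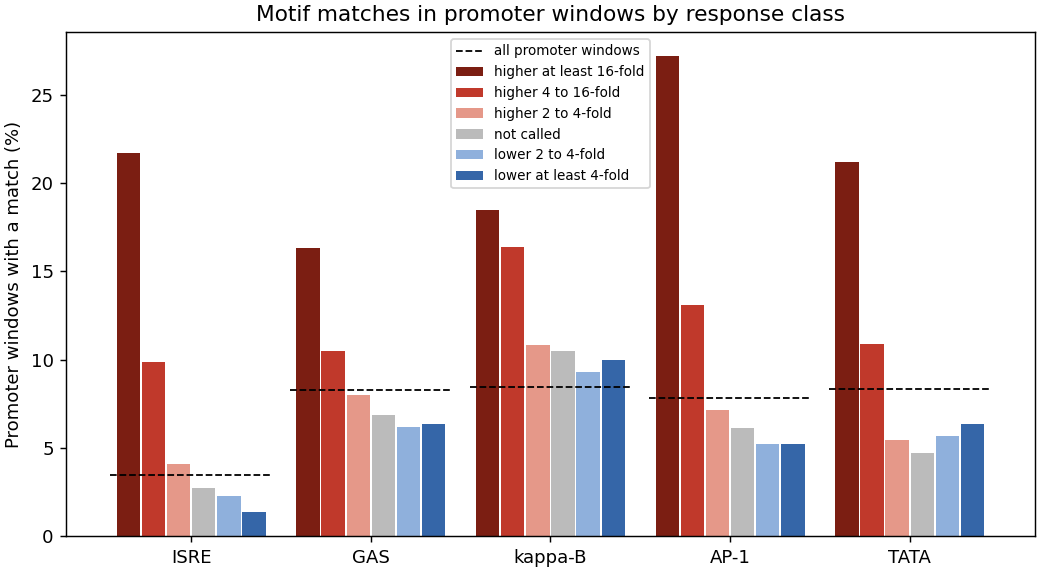
Bars give the share of promoter windows (y axis, %) with at least 1 match to each of 5 motifs (x axis), by response class of the gene, and dashed lines give the share over all promoter windows. In each motif the darkest red bar, genes up at least 16-fold, is the highest, from 16.3% for GAS to 27.2% for AP-1.

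Signals that recruit immune cells were among the steepest rises. Of chemokines 20 rose and 2 fell of 27 tested, and the median log2 fold change was 3.16. Cxcl10, which shares a receptor with Cxcl9, rose from 1.78, 1.84 and 2.03 to 798, 650.1 and 773 CPM (log2 8.61, SE 0.22, edgeR adjusted p = 2e-10). Cxcl1, a neutrophil attractant, rose from 1.13, 1.48 and 2.33 to 359, 321 and 331 CPM. Ccl2, a monocyte attractant, rose from 1.9, 2.46 and 3.19 to 329, 285 and 278 CPM. No treated library of these came near the untreated range. Cxcl12, which retains stem and immune cells, fell from 19.8, 18 and 27 to 17.3, 11.2 and 12.5 CPM. Cxcl13, a B cell attractant, fell with a log2 fold change of -1.01. Both falls lost their call without treated replicate 2 (edgeR adjusted p = 0.0789 and 0.137), without treated replicate 3 and without untreated replicate 3, and Cxcl13 also without untreated replicate 2. Cxcl13 further missed the threshold with DESeq2 (adjusted p = 0.0521), with no filter (edgeR, 0.0525) and with the replicate number as a block (edgeR, 0.0517).

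Islets also carried more RNA for several cytokines. In that list 18 rose and 1 fell of 25 tested, and the median log2 fold change was 2.01. Il6 rose from 3.98, 7.24 and 6.8 to 176, 141 and 155 CPM (log2 4.71, SE 0.24, edgeR adjusted p = 2.7e-08). Tnf, 1 of the cytokines added, rose from 0.611, 0.939 and 1.04 to 18.4, 16.8 and 14.1 CPM. Il1b, another of them, rose from 2.02, 2.2 and 2.08 to 12.9, 12.3 and 13 CPM. The IFN-gamma gene had too few counts to be tested. Csf3, a growth factor of neutrophils, rose from 0.235, 0.151 and 0.167 to 13, 14.3 and 15.8 CPM. Il11 stood at 289.9, 378 and 361 CPM in untreated and 294, 127 and 225 CPM in treated islets and did not pass (log2 -0.67, SE 0.3, edgeR adjusted p = 0.07), with treated replicate 2 the lowest. Without treated replicate 1 it passed as a fall (edgeR adjusted p = 0.0229), as it did with library totals alone, with no filter and with limma-voom. Ebi3, a subunit of IL-27 and IL-35, was the member that fell (log2 -1.13).

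Markers of macrophages moved with these lists. Of 15 macrophage markers 14 rose and none fell, and their summed level was 258.6 to 313 CPM in untreated and 796.5 to 947.2 CPM in treated islets. Csf1r, the receptor for the macrophage growth factor, rose from 17.8, 22.1 and 22.2 to 46.1, 33.8 and 34.4 CPM. Mrc1 was the member not called (log2 -0.94), and it passed as a fall without treated replicate 1 and under 5 of the other alternatives. Of 5 neutrophil markers the 3 with enough counts rose, from a sum of 0.11 to 0.335 CPM to 27.7 to 31.4 CPM. With almost no untreated counts these 3 could not have been called as falls, so their number says little. Camp, 1 of them, had no untreated count and a treated mean of only 0.36 CPM. S100a9, which epithelial and myeloid cells can also express, rose from 0, 0.101 and 0.0239 to 20.3, 25.3 and 23.3 CPM. Ly6g and Retnlg, further neutrophil markers, had too few counts to test. So had the T cell genes Cd3e, Cd3d, Cd3g and Cd8a and all 4 NK cell markers. The part of macrophage or neutrophil RNA in the rises above was not tested.

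Surface molecules that meet leukocytes were split. Of adhesion and checkpoint molecules 14 rose and 3 fell of 21 tested, and the median log2 fold change was 1.00. Cd274, the checkpoint ligand PD-L1, rose from 20.9, 22.2 and 22 to 843, 857 and 897 CPM (log2 5.32, SE 0.11, edgeR adjusted p = 7e-11). Icam1, an adhesion molecule for leukocytes, rose from 12.6, 16 and 17.2 to 778, 725 and 738 CPM (log2 5.61, SE 0.13, edgeR adjusted p = 1.5e-10). H2-T23, the class I molecule Qa-1, rose from 21, 24.9 and 24.8 to 83, 98.5 and 394 CPM. Treated replicates lay close together in Cd274 and Icam1 but not in H2-T23, where 1 library was far above the other 2. Vsir and Icam2 were among the members that fell, with log2 fold changes of -0.95 and -0.73, and the remaining one fell at least 2-fold. Icam2 is made by endothelial cells, whose markers fell as well, and their part in its fall was not tested.

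Complement and acute phase proteins, made in quantity by the liver, ranged from near silence to high levels. In that list 26 rose and 5 fell of 36 tested, and the median log2 fold change was 3.06. The median is 3.06 also with Saa2, which had no untreated count, at its lower bound against a floor of 3 counts over the 3 untreated libraries. C1ra, a protease of the complement cascade, rose from 3.7, 5.83 and 6.12 to 396, 493 and 459.7 CPM (log2 6.43, SE 0.22, edgeR adjusted p = 1.3e-09). C3, the central complement protein, rose from 51, 64.9 and 107 to 495, 432 and 930.5 CPM. Lcn2, an iron-binding defence protein, rose from 111, 174 and 199 to 1136, 1182 and 1724 CPM. For Lcn2 and C3 the untreated levels were already well above 0. Clu, the secreted chaperone clusterin, fell from 8364, 6820 and 9746 to 4002, 3483 and 3984 CPM (log2 -1.12, SE 0.21, edgeR adjusted p = 0.00072). Reg3a, an antimicrobial lectin that acinar cells can make, fell with a log2 fold change of -4.11. Acinar markers fell too, as given further on, and their part in this was not tested.

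Around Nos2, genes of arginine and biopterin metabolism went both ways. In that list 9 rose and 5 fell of 20 tested, and the median log2 fold change was 0.05, and with library totals alone 8 rose and 5 fell with a median of -0.18. Ass1, which remakes arginine for the enzyme, rose from 41.4, 47.6 and 51.3 to 282, 158 and 211 CPM (log2 2.21, SE 0.25, edgeR adjusted p = 1.6e-05). Arg1, which removes arginine, fell (log2 -2.01). Gch1, the first enzyme of the biopterin cofactor, rose from 250.2, 236 and 227 to 318, 359.9 and 326 CPM. The next enzymes of that pathway differed from it in direction. Pts fell with a log2 fold change of -0.63 and Qdpr, which recycles the cofactor, with -0.71. Acod1, which makes itaconate in macrophages, rose from 0.392, 0.654 and 0.656 to 227, 210.3 and 211 CPM. Nos3, the endothelial synthase, fell from 13, 17.5 and 17.7 to 4.18, 3.06 and 3.53 CPM, beside the fall of the endothelial markers.

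Prostaglandin genes rose at the inducible steps. In the prostaglandin and eicosanoid list 8 rose and 3 fell of 17 tested, and the median log2 fold change was 0.48. Ptgs2, inducible cyclooxygenase, rose from 39.4, 43.8 and 49.99 to 384, 209 and 322 CPM. Ptges, the inducible prostaglandin E synthase, rose from 10.8, 11.6 and 11.7 to 91.6, 62 and 75.9 CPM. Both were lowest in treated replicate 2 among treated libraries. Alox12, a lipoxygenase, rose from 1.36, 1.46 and 2.05 to 13.7, 15.4 and 13.1 CPM (log2 3.11, SE 0.17, edgeR adjusted p = 6.1e-08). Among prostaglandin E receptors Ptger2 rose and Ptger3 fell, with log2 fold changes of 3.68 and -1.46.

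Antioxidant and iron genes were mostly higher. In that list 23 rose and 5 fell of 29 tested, and the median log2 fold change was 1.25. Sod2, the mitochondrial superoxide dismutase, rose from 79.3, 75.6 and 77.2 to 645, 699.9 and 624 CPM (log2 3.08, SE 0.094, edgeR adjusted p = 6e-10). Fth1, the heavy chain of the iron store ferritin, rose from 743, 831 and 837 to 3812, 3499 and 3305 CPM. Slc11a2, which imports iron, rose from 34.6, 36.1 and 35.5 to 132, 158 and 159.6 CPM. Groups were far apart in all 3. The exporter of iron moved the other way. Slc40a1, ferroportin, fell from 91.6, 89.9 and 90.3 to 23.4, 25.2 and 26.7 CPM. Slc30a8, the zinc transporter of insulin granules, fell from 372, 289 and 315 to 104, 84.2 and 80.9 CPM. Slc7a11, which imports cystine for glutathione, rose from 20.2, 17.7 and 22.7 to 416, 241 and 319.7 CPM.

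Stress pathways were split within themselves. Of ATF4 and CHOP targets, the integrated stress response, 12 rose and 1 fell of 22 tested, and the median log2 fold change was 0.35. Ddit3, which encodes CHOP, rose from 15.4, 18 and 15.3 to 179, 252 and 191 CPM (log2 3.67, SE 0.24, edgeR adjusted p = 2.2e-07). Trib3, a target of CHOP, rose from 26.9, 29.6 and 31.2 to 99.5, 105 and 108 CPM. Chac1, another target, stood at 38.1, 38.4 and 36.7 CPM in untreated and 38.6, 29.9 and 33.9 CPM in treated islets and did not pass (log2 -0.15, SE 0.17, edgeR adjusted p = 0.48). The 1 fall in the list was lost without treated replicate 2 and without untreated replicate 1. It was also lost with DESeq2's size factors, with DESeq2, with control libraries only and with the replicate number as a block. With library totals alone 10 rose and 2 fell. Targets of XBP1 and ATF6, which fold and clear proteins in the endoplasmic reticulum, gave a median close to 0. Of them 14 rose and 6 fell of 30 tested, and the median log2 fold change was 0.15, and with library totals alone 8 rose and 11 fell with a median of -0.079. Hspa5, the chaperone BiP, rose from 1288, 1215 and 1269 to 1737, 2119 and 1822 CPM. Edem1, which marks misfolded proteins for removal, rose from 137, 134 and 139.9 to 291, 307 and 302 CPM, and its relative Edem2 fell (log2 -1.39). Ero1lb, an oxidase that serves insulin folding, fell from 548, 415 and 461 to 212, 234 and 196 CPM.

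Of p53 targets and DNA damage genes 12 rose and 4 fell of 24 tested, and the median log2 fold change was 0.37, and with library totals alone 10 rose and 7 fell. Mdm2, the ligase that limits p53, rose from 70.1, 69.6 and 70.8 to 192, 174 and 166 CPM (log2 1.33, SE 0.07, edgeR adjusted p = 3.4e-08). Gadd45b, a growth arrest gene that NF-kB also drives, rose from 13.9, 13.2 and 14.9 to 141, 156 and 113 CPM. Trp53, the gene of p53 itself, was not called. Btg2, a brake on division, fell (log2 -0.79).

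Cell death genes of several routes were higher. In that list 19 rose and 4 fell of 30 tested, and the median log2 fold change was 0.90. Fas, a death receptor, rose from 2.04, 1.66 and 1.89 to 29.1, 31.2 and 27.2 CPM (log2 3.97, SE 0.1, edgeR adjusted p = 2e-10). Mlkl, the executor of necroptosis, rose from 8.22, 8.95 and 10.7 to 113, 121 and 108 CPM. Casp4, a caspase of pyroptosis, rose from 1.39, 2.03 and 2.39 to 33.1, 26.8 and 29.5 CPM. All 3 were under 11 CPM in untreated islets. Bcl2l1, which shields mitochondria, rose from 73.8, 72 and 74.7 to 142, 172 and 169.6 CPM. The number of falls changed with single libraries and with the processing. It was 1 without treated replicate 2, and 2 without untreated replicate 1 or 3. It was 2 with DESeq2's size factors, 3 with DESeq2, control libraries only or the replicate block, and 5 with limma-voom. Without treated replicate 2, 19 rose, and with library totals alone 15 rose and 7 fell.

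Of autophagy and lysosome genes 19 rose and 4 fell of 28 tested, and the median log2 fold change was 0.42, and with library totals alone 14 rose and 7 fell. Sqstm1, the cargo receptor p62, rose from 582, 557 and 565 to 3090, 3985 and 3235 CPM (log2 2.60, SE 0.17, edgeR adjusted p = 1.8e-07). Optn, another cargo receptor, rose from 19.7, 20.9 and 19.3 to 94.7, 128 and 107 CPM. Ctsb, a lysosomal protease, rose from 512, 567 and 599.9 to 2206, 2564 and 2352 CPM. Atg5, a core gene of autophagosome formation, rose by log2 0.29, a call that library totals alone did not give. Wipi1, which acts at the forming autophagosome, fell from 131, 151 and 135 to 57.7, 62.9 and 58 CPM.

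The protein synthesis machinery rose by small steps. Of cytosolic ribosomal proteins 74 rose and 0 fell of 78 tested, and the median log2 fold change was 0.62, and 72 rose with library totals alone. Their summed level was 21073 to 21799 CPM in untreated and 30508 to 34572 CPM in treated islets. Rps20 rose from 210.0, 216 and 219 to 465, 487 and 432 CPM (log2 1.10, SE 0.065, edgeR adjusted p = 1e-07). Of aminoacyl-tRNA synthetases 17 rose and 1 fell of 20 tested, and the median log2 fold change was 0.58, or 12 and 3 with library totals alone. Wars, the tryptophan enzyme and a known interferon target, rose from 148, 144 and 151 to 638, 538 and 512 CPM (log2 1.93, SE 0.088, edgeR adjusted p = 1.2e-08). Pabpc1, which binds poly(A) tails, rose from 729, 725 and 798 to 4642, 5138 and 4279 CPM (log2 2.64, SE 0.13, edgeR adjusted p = 1.9e-08). Eef1a1, an elongation factor, rose from 3703, 3466 and 3656 to 5780, 5739 and 5100 CPM. Ribosomal genes have many processed copies in the genome, and among 1062 tested processed pseudogenes 300 rose and 78 fell.

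The transcription factors that define beta cells mostly fell. In that list 2 rose and 23 fell of 30 tested, and the median log2 fold change was -1.01. Mafa, which activates the insulin genes in mature beta cells, fell from 564, 416 and 424 to 25.7, 29.1 and 35.3 CPM (log2 -3.96, SE 0.28, edgeR adjusted p = 4.2e-07). Pdx1, a master factor of pancreas and beta cells, fell from 166, 131 and 129 to 22.9, 22.3 and 22.7 CPM (log2 -2.65, SE 0.11, edgeR adjusted p = 4.1e-09). Nkx2-2, a factor that keeps beta cell identity, fell from 179, 162 and 148 to 39.7, 41.9 and 44.8 CPM. The treated libraries of these 3 lay close together and far below the untreated ones. Nkx6-1, another identity factor, fell from 379, 305 and 295 to 156, 169 and 168 CPM. Glis3 rose from 78.4, 65.9 and 71.9 to 109, 98.2 and 119 CPM. Glis3 was among the members that rose, by less than 2-fold, and with library totals alone 1 member rose and 25 fell. One member rose also without treated replicate 2 or without untreated replicate 2.

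The insulin transcripts did not pass the edgeR test over all libraries. Ins1 stood at 41270, 41469 and 40210 CPM in untreated and 46926, 50409 and 39272 CPM in treated islets (log2 0.15, SE 0.2, edgeR adjusted p = 0.53). Ins2 stood at 81915, 73207 and 73075 CPM in untreated and 104010, 114983 and 94496 CPM in treated islets (log2 0.46, SE 0.2, edgeR adjusted p = 0.062). Treated and untreated libraries of Ins1 overlapped, and with library totals alone its log2 fold change was -0.080 (edgeR adjusted p = 0.713). The groups of Ins2 did not overlap. Ins2 passed as a rise with DESeq2's size factors (edgeR adjusted p = 0.0451), with control libraries only (edgeR, 0.0381), with no filter (edgeR, 0.0375), with limma-voom (adjusted p = 0.038) and with DESeq2 (adjusted p = 0.00864). Genes that process and release hormone went both ways, in shares near the 26.8% that rose and 33.9% that fell of all tested genes. Of prohormone processing and granule proteins 8 rose and 11 fell of 35 tested, and the median log2 fold change was 0.06, and with library totals alone 8 rose and 15 fell with a median of -0.17. Pcsk1, which makes the first cut in proinsulin, fell from 534, 449.6 and 461 to 174, 198 and 195 CPM. Cpe, which trims the cut ends, rose from 2607, 2277 and 2266 to 4220, 5373 and 4332 CPM. Chgb, a granin of the granule core, rose from 3344, 3641 and 3708 to 6525, 7683 and 6145 CPM. Rab27a, which brings granules to the membrane, fell from 249.9, 234 and 228 to 79.3, 70.3 and 75.5 CPM (log2 -1.66, SE 0.13, edgeR adjusted p = 9.6e-07).

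Glucose sensing was lower at some steps and not called at others. Of glucose sensing genes and ion channels 4 rose and 21 fell of 32 tested, and the median log2 fold change was -0.67, and with library totals alone 1 rose and 25 fell. Slc2a2, the glucose transporter GLUT2, fell from 348, 209 and 268 to 57.7, 46.2 and 55 CPM (log2 -2.38, SE 0.27, edgeR adjusted p = 1.7e-05). G6pc2, a glucose-6-phosphatase of islets, fell from 1144, 951 and 993 to 257, 219 and 213 CPM. Kcnk16, the potassium channel TALK-1, fell from 227, 224 and 201 to 21.8, 31.1 and 21.7 CPM. The genes of the KATP channel did not pass. Its subunits Abcc8 and Kcnj11 had log2 fold changes of -0.43 and -0.37. With library totals alone both passed as falls (edgeR adjusted p = 0.0231 and 0.0132), and Kcnj11 also with control libraries only (edgeR adjusted p = 0.0251). Cacna1d, a calcium channel of beta cells, fell from 127, 120.3 and 118 to 33.4, 41.7 and 42.5 CPM.

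G protein-coupled receptors had the lowest median of the 31 lists. Of them 6 rose and 24 fell of 37 tested, and the median log2 fold change was -1.70. Glp1r, the receptor for the incretin GLP-1, fell from 1006, 839 and 891 to 186, 170.0 and 199 CPM (log2 -2.30, SE 0.18, edgeR adjusted p = 1e-06). Gipr, the receptor for the other incretin, fell from 84.5, 112 and 93.2 to 15.7, 22 and 18.8 CPM. Ffar1, which senses long fatty acids, fell from 153, 130.3 and 129 to 25, 26.4 and 28.2 CPM. In each the highest treated library lay below the lowest untreated one by more than 3-fold. Somatostatin receptors differed among themselves. Sstr2 fell from 7.19, 6.69 and 7.18 to 0.498, 0.475 and 0.361 CPM. Sstr3 rose from 117, 108 and 107 to 200.1, 188 and 183 CPM (log2 0.78, SE 0.13, edgeR adjusted p = 0.00037).

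**Figure D5:**
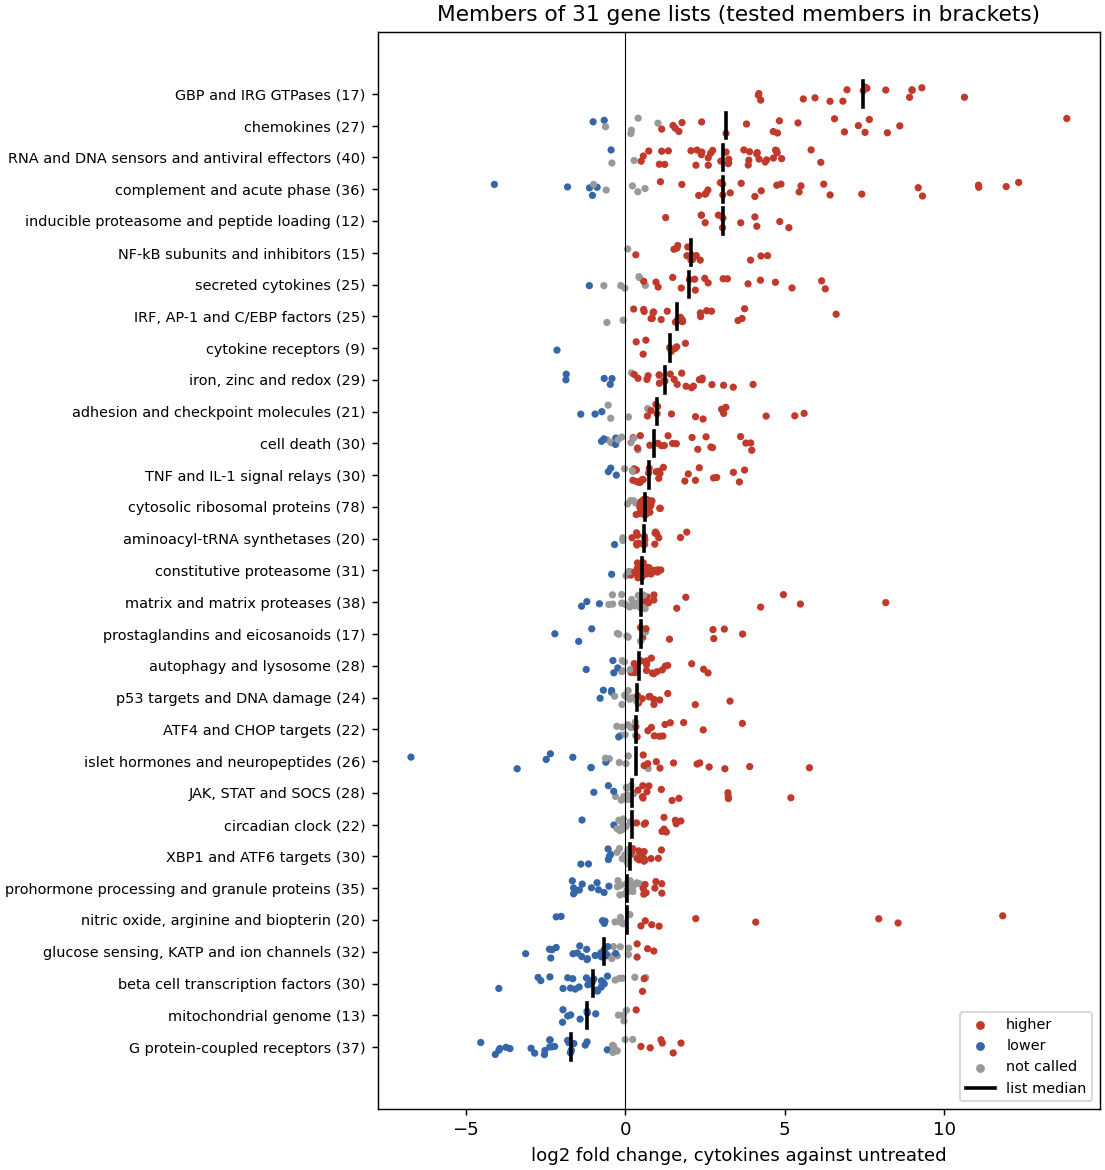
Each point is a tested member of 1 of 31 gene lists (rows, sorted by their median), placed by its log2 fold change on the x axis, with red for genes that rose, blue for genes that fell, grey for genes not called and a black bar at the list's median. Medians run from -1.70 for the G protein-coupled receptors to 7.47 for the GBP and IRG GTPases, against -0.10 over all tested genes.

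Hormones of the other endocrine cells were lower, while some neuropeptides were higher. In the hormone and neuropeptide list 12 rose and 8 fell of 26 tested, and the median log2 fold change was 0.33. Gcg fell from 22356, 17415 and 18399 to 8557, 10915 and 8264 CPM (log2 -1.07, SE 0.15, edgeR adjusted p = 8.7e-05). Sst, somatostatin, fell from 1967, 1865 and 1758 to 443, 570.4 and 776 CPM. Ucn3, urocortin 3 of mature beta cells, fell from 233, 206 and 225 to 24.8, 18.6 and 19.9 CPM. For Ucn3 all treated libraries were under 25 CPM. Ppy, pancreatic polypeptide, was not called (log2 -0.50), and it passed as a fall without treated replicate 3 (edgeR adjusted p = 0.0442) and under 4 other alternatives. Tac1, the precursor of substance P, rose from 0.188, 0.386 and 0.215 to 12.2, 17.6 and 13 CPM (log2 5.78, SE 0.27, edgeR adjusted p = 1.3e-08). Gal, galanin, rose from 1.08, 1.14 and 1.22 to 18.3, 15.6 and 17.8 CPM. Of beta cell markers 5 of 8 fell, of alpha 5 of 7, of delta 4 of 4 and of PP 2 of 3. None rose in the edgeR test over all libraries, and Ins2, a beta marker, rose under 5 alternatives.

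The mitochondrial genome did not move as one. Of its 13 protein genes 1 rose and 8 fell of 13 tested, and the median log2 fold change was -1.19. mt-Nd1, a subunit of complex I, fell from 2568, 2415 and 2342 to 783, 731 and 724 CPM. mt-Cytb, of complex III, fell from 3434, 3132 and 2866 to 1361, 1533 and 1212 CPM. mt-Co1, of complex IV, rose from 4815, 4449 and 4173 to 5697, 6190 and 5154 CPM (log2 0.34, SE 0.1, edgeR adjusted p = 0.013). With library totals alone none rose and 9 fell, so the call of mt-Co1 depends on the scaling (edgeR adjusted p = 0.276 there). It is also lost without treated replicate 2 (edgeR adjusted p = 0.0529) and without untreated replicate 3 (edgeR adjusted p = 0.0568). mt-Co2, mt-Co3, mt-Atp6 and mt-Atp8 were not called. Acly, a nuclear gene whose enzyme turns citrate from mitochondria into acetyl-CoA, fell from 3513, 3473 and 3300 to 1155, 1259 and 1279 CPM (log2 -1.48, SE 0.15, edgeR adjusted p = 5.2e-06).

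Clock genes were followed as a list with no direct part in the cytokine pathways. Of them 10 rose and 2 fell of 22 tested, and the median log2 fold change was 0.21, and with library totals alone 8 rose and 6 fell with a median of -0.019. Nr1d1, the repressor REV-ERB-alpha, rose from 61.2, 58.3 and 61.6 to 209, 220.2 and 178 CPM (log2 1.74, SE 0.16, edgeR adjusted p = 3.7e-06). Per1 rose from 61.6, 68.1 and 64.2 to 172, 227 and 188 CPM. Per3 fell from 23.7, 28 and 26.6 to 9.22, 9.26 and 12.2 CPM. Per2 and Dbp were not called. Without untreated replicate 1, treated replicate 2 or treated replicate 3 only 1 clock gene fell. The labels do not give the hour of collection.

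Among matrix genes the proteases changed most. In that list 12 rose and 3 fell of 38 tested, and the median log2 fold change was 0.49. Mmp13, a collagenase, rose from 1.93, 2.56 and 2.6 to 149, 76.2 and 95.4 CPM (log2 5.49, SE 0.35, edgeR adjusted p = 1.7e-07). Mmp10 rose from 0.329, 0.251 and 0.31 to 113, 46 and 101 CPM. Mmp3 rose from 4.34, 4.24 and 6.28 to 209.6, 103 and 153 CPM. In all 3 treated replicate 2 was the lowest treated library and still far above the untreated ones. Col1a1, a fibrillar collagen, stood at 893, 1087 and 1128 CPM in untreated and 2001, 644 and 1485 CPM in treated islets (log2 0.41, SE 0.42, edgeR adjusted p = 0.42). Here treated replicate 2 was below and the other 2 above the untreated range. The summed matrix level was 13928, 5954 and 10381 CPM in treated replicates 1, 2 and 3, against 6232 to 7814 CPM untreated. That of 12 stellate and pericyte markers was 4497, 1612 and 3281 CPM, against 2015 to 2583 CPM untreated. Without treated replicate 2, 16 matrix genes rose and 3 fell, with a median of 0.77, and the part of stellate cell RNA was not tested.

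Markers of endothelial and acinar cells fell. All 13 endothelial markers did, and their sum went from 884.8 to 1163 CPM down to 254.3 to 362.9 CPM. Kdr, a VEGF receptor, fell from 136, 144 and 157 to 19.1, 15.1 and 23.7 CPM (log2 -2.92, SE 0.14, edgeR adjusted p = 1.9e-08). Of 17 tested acinar markers 14 fell and none rose, and their sum went from 5447 to 8902 CPM down to 1140 to 1881 CPM. Ctrb1, a digestive protease precursor, fell from 3158, 2253 and 3561 to 552, 790.4 and 523 CPM (log2 -2.27, SE 0.4, edgeR adjusted p = 0.00049). Cela1, an elastase, fell from 665, 512 and 806 to 41, 47.4 and 28.6 CPM. Of 10 ductal markers 3 rose and 4 fell, or 3 and 2 without treated replicate 2. Of 7 Schwann cell markers 2 rose and 3 fell. Over all tested genes 26.8% rose and 33.9% fell, and these small counts set neither list apart from that.

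Long noncoding RNAs are described beside coding genes, with no test of the difference. Of 2774 tested, 389 rose and 1150 fell, and the median log2 fold change was -0.62. Of 15543 protein-coding genes 4510 rose and 5386 fell, with a median of -0.086. At like levels the medians were -0.57 against -0.26 under 1 CPM, -0.74 against -0.46 at 1 to 5 CPM, -0.53 against -0.25 at 5 to 20 CPM and 0.066 against 0.065 at 20 CPM and above. Level here was the mean of the untreated and treated group means, so a rise by itself moves a gene up in level. The highest class held only 41 long noncoding RNAs. AW112010, known from activated immune cells, rose from 1.6, 1.61 and 1.84 to 147, 131 and 129 CPM (log2 6.33, SE 0.11, edgeR adjusted p = 1.3e-11). Gm16685 rose from 0.094, 0.0838 and 0.143 to 28.6, 23.5 and 25.2 CPM. Gm16170, antisense and next to the Irgm1 gene, rose from 0.141, 0.268 and 0.239 to 13.1, 16.1 and 18.8 CPM. All 3 were under 2 CPM in untreated islets. Gm27033 fell from 9.54, 7.59 and 7.27 to 0.829, 0.784 and 0.682 CPM (log2 -3.40, SE 0.25, edgeR adjusted p = 5.1e-07). It lies downstream of Pdx1 on the same strand, at chr5:147280720-147281263 (GRCm38), and is an intergenic RNA by annotation. Gm45606 fell from 21.6, 21.1 and 21.1 to 2.19, 2.2 and 1.6 CPM. Whether counting used strand is not stated, and without it an antisense RNA and the gene it overlaps cannot be told apart.

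Some of the large changes lay side by side in the genome. There were 26 runs of at least 5 neighbouring tested protein-coding genes that all changed at least 2-fold in 1 direction. They hold 172 of the 3865 protein-coding genes called at that size (4.45%). The longest, 12 genes at chr17:34119541-34369495 (GRCm38), holds the class II genes H2-Ab1, H2-Aa and H2-Eb1 with Psmb8, Psmb9, Tap1 and Tap2, and its median log2 fold change was 3.10. The 11 Ifi200 family genes, DNA sensors, at chr1:173468485-174031810 had a median of 3.96. Gbp genes form runs of 5 on chromosome 3, with a median of 7.47, and on chromosome 5, with 7.53. Matrix metalloprotease genes form one on chromosome 9 (median 5.23), and Fas with the Ifit genes one on chromosome 19 (median 4.14). Runs that fell include the 5 Reg genes on chromosome 6 (median -2.51), 5 kallikrein genes on chromosome 7 (median -2.97) and Nkx2-2 with Foxa2 on chromosome 2 (median -1.93). Many of these families hold close copies, and how reads common to them were assigned is not stated.

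The change differed between classes of gene size and of level. Among protein-coding genes the median log2 fold change was -0.067 in the 20% with the shortest genomic span and -0.18 in the 20% with the longest. The middle 20% had -0.036, so the median did not fall steadily with span. The median was -0.31 in the 20% with the lowest mean CPM and 0.22 in the 20% with the highest. Level here was the mean of the untreated and treated group means, so a rise by itself moves a gene up in level. Among the highest of 3 equal classes by level the shortest and the longest 20% had medians of 0.32 and -0.059. For the 20% with the longest span, treated replicates 1, 2 and 3 lay at -0.15, -0.29 and -0.12 from the untreated mean on the log2 scale. For the shortest 20% they lay at -0.048, -0.088 and -0.060. Untreated replicates 1, 2 and 3 lay at 0.065, -0.054 and -0.013 from the mean of the other untreated libraries for the longest 20%. Replicate 2, the library that stood apart, was the lowest, and the part of RNA quality in this was not tested.

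The response of control islets was compared with that of islets labelled bKO by the difference of the 2 fitted responses, an interaction. The edgeR quasi-likelihood test called 0 genes (0%), with 2162 at an unadjusted p under 0.05 and a smallest adjusted p of 0.213. The limma-voom fit called 0 and DESeq2 186. The Ptpn2 transcript was not lower in the libraries labelled bKO, at 33.8 to 36.7 CPM untreated and 84.2 to 110.5 CPM treated. Counts over the whole gene do not test a deleted exon. Cxcl9 responded by log2 13.85 in control islets and 13.45 in those labelled bKO. Pdx1 responded by -2.65 and -2.85. Clu responded by -1.12 and 0.35 (edgeR adjusted p of the difference = 0.25). Ctrb1 responded by -2.27 and -0.30 (edgeR adjusted p of the difference = 0.31), and neither of these differences passed.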

How the data were processed

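The authors deposited a table of raw read counts for 12 libraries of islet RNA. The submitters' processing notes name FastQC 0.11.7, cutadapt 1.16, STAR 2.5.2a, featureCounts 1.6.2, the GRCm38 genome and DESeq2 1.30.0. Which annotation release and strand setting were used is not stated there.

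The filterByExpr function kept 19800 of 55536 genes. Counts were scaled by TMM and fitted with edgeR 4.0.16 (R 4.3.3), a quasi-likelihood model with a coefficient per group over all 12 libraries, and p-values were adjusted by Benjamini-Hochberg over all genes kept. The comparison of 3 with 3 libraries allows no exact permutation p under 0.1 for a single value. On simulated counts with 100 genes changed 2-fold and 100 changed 4-fold among 19800 genes, the test found 54 and 79, and 10 of 143 calls were false. No other gene was changed there, while 60.6% of tested genes were called in the data. The simulation thus does not give the power or the rate of false calls of the real comparison. Libraries of a group differed beyond sampling noise (smallest chi-square per degree of freedom 16.3), so none was counted as a copy of another. Same-numbered treated and untreated libraries did not deviate together (correlations -0.253, 0.014 and -0.011 over 11631 genes), while differently numbered pairs ranged from -0.337 to 0.414, so numbers were not used as pairs. Names and biotypes are from GENCODE M21, promoters from RefSeq.

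The genes and the 31 gene lists and 15 marker lists were chosen with earlier results of these data known. Named are the 12 genes per direction with the largest change and the 10 with the largest CPM difference (at least 5 CPM in the higher group, groups apart, no predicted genes), from each list up to 4 members of smallest adjusted p and the 2 of highest CPM, 5 lncRNAs per direction, and Ptpn2, Ins1, Ins2, Nos2, Cxcl9 and Irf1. Other list members are named for their role, after their values were seen. Each result was recomputed with no filter or one of 1 CPM in 3 libraries, with size factors of DESeq2 or unscaled library totals, with DESeq2 1.42.0 and limma-voom 3.58.1, with the control libraries only, with the replicate number as a block, and without each library in turn.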

Additional observations from a re-analysis of the deposited data

How the results depend on the processing

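The counts of called genes stayed within 1.5 times the main ones under every alternative run for the control response: 3737 to 6150 genes rose and 5770 to 8998 fell. Replicate numbers are shared by label only; with the replicate block 4990 rose and 6357 fell. Leaving out 1 library gave 4773 to 4959 and 5981 to 6341. For the difference between genotypes DESeq2 called 186 genes and edgeR without a filter 1, and leaving out 1 library gave 0 to 3, with 3 without untreated replicate 3 of the islets labelled bKO and 1 without untreated replicate 2 of the controls. The cause was not tested. Signs turned in lists whose median was near 0 and in the B cell markers, whose main median was 0.49 over 3 genes. With library totals alone the medians were -0.0029 (JAK, STAT and SOCS), -0.18 (nitric oxide), -0.079 (XBP1 and ATF6), -0.17 (granule proteins), -0.019 (clock) and -0.11 (stellate), and Mcl1 and Ins1 were at -0.052 and -0.080. The T cell median was 0.61 with the 1 CPM filter, 0.036 with limma-voom, 0.017 with the replicate block, and -0.52 to 0.42 without 1 library (0.0078 without treated replicate 2). The B cell median was -0.86 with the 1 CPM filter and -0.12 with control libraries only. The Schwann median was 0.021 with DESeq2's size factors, 0.019 with DESeq2, and -0.36 to 0.072 without 1 library (0.043 without treated replicate 3). Leaving out 1 library moved the nitric oxide median from -0.0098 to 0.13 and the stellate median from -0.14 to 0.33, the lowest of both without treated replicate 1, and the ductal median from -0.46 to 0.056, the highest without treated replicate 2. The 6 control libraries had at least 52930884 counts and the others at least 47064061, and genes dropped for low counts were not tested.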
